A study of Mus musculus with 9 samples.

Results

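The oocyte-specific homeobox genes Obox1, Obox2, Obox3, Obox5, Obox6 and Obox7 were followed through poly(A) RNA sequencing of mouse oocytes. The 6 genes were chosen by their gene symbols, and they are 6 of the 26358 genes in the deposited table. There were 3 groups of 3 libraries each. In cryopreservation-2, oocytes were frozen in a straw, with ethylene glycol (EG) at 17.5%, trehalose at 1 M and nanoparticles labelled PVA/Fe3O4/GO. In cryopreservation-1, the carrier was a cryotop, which is a narrow film loaded with a minimal volume, with EG and DMSO at 15% each and sucrose at 0.5 M. The third group was fresh oocytes. None of strain, age or stage of maturation is given in the sources used here. Carrier, solutes and nanoparticles changed together between both freezing methods, so the 3 comparisons below are between whole protocols.

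Obox genes encode transcription factors with a homeodomain, a DNA-binding fold whose recognition helix lies in the major groove of DNA. Their mRNAs are made in the growing mouse oocyte, where transcription later falls silent, and are kept in the egg as maternal transcripts. After fertilization OBOX proteins act redundantly in zygotic genome activation, the start of transcription from the embryo's own genome. Obox1, Obox2, Obox5 and Obox7 are known as maternal members, while Obox3 is known mainly from the early embryo. Obox6 is known from preimplantation embryos and from its use in reprogramming of somatic cells.

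All 6 genes lay in 1 cluster on chromosome 7 (GRCm38, coordinates of the deposited table). The cluster spanned 1180 kb and held 39 entries, of which 6 were the named genes, 30 were other Obox entries and 3 were not Obox (the pseudogenes Mrip-ps, Gtpbp4-ps5 and Gtpbp4-ps6). Obox7 (ENSMUSG00000055942) lay apart from the rest, at chr7:14659496-14665996 on the plus strand. Obox2 (ENSMUSG00000074369) was at chr7:15388721-15398545 and Obox5 (ENSMUSG00000074366) at chr7:15750131-15759800, both on the plus strand. Obox6 (ENSMUSG00000041583) was at chr7:15833241-15839678 on the minus strand. The entry for Obox1 (ENSMUSG00000054310), chr7:15388948-15556846 on the plus strand, ran over 9598 bases of Obox2. It also ran over 77022 bases of Obox3 (ENSMUSG00000066772), which was at chr7:15479825-15639777 on the minus strand. In the GENCODE annotation of the same build, 59 exon bases were common to Obox1 and Obox2, and 0 to Obox1 and Obox3.

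**Figure D1:**
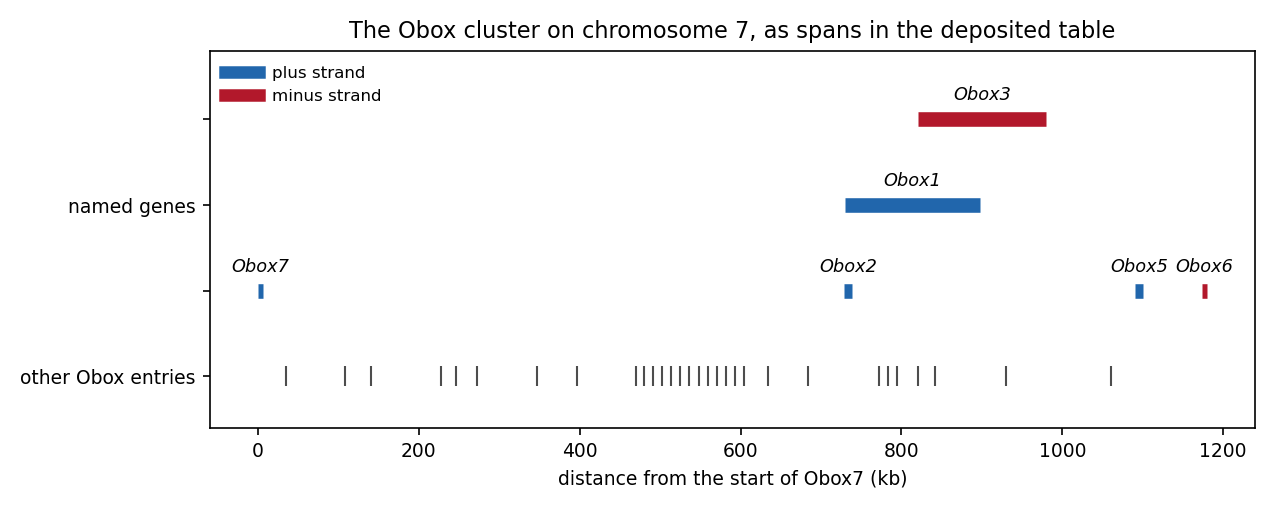
The Obox cluster on chromosome 7 by distance from the start of Obox7 in kb; bars are the spans of the 6 named genes, coloured by strand and drawn in rows so that overlapping spans can be seen, and ticks are the starts of the 30 other Obox entries. The span of Obox1 covers most of Obox2 and overlaps that of Obox3 by 77022 bases.

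The coding sequences show how close the copies are, so the stretch around the codons of the recognition helix is given for each gene. It is 75 bases of the main GENCODE transcript, and capitals mark the bases that differ from Obox1.

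Obox1: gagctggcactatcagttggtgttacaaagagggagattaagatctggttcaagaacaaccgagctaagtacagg
Obox2: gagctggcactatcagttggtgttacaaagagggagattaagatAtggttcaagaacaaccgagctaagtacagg
Obox3: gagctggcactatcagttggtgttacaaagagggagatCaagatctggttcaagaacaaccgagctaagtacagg
Obox5: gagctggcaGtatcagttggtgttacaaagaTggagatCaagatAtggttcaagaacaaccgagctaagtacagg
Obox7: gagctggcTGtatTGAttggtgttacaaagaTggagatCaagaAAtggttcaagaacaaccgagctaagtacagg
Obox6: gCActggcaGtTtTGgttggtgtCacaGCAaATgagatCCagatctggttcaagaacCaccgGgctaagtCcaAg

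Counting from 1 at the first base shown, Obox2 differed from Obox1 by C45A and Obox3 by T39C. Obox5 differed at 4 bases (C10G, G32T, T39C and C45A), Obox7 at 9 and Obox6 at 18. In alignments of the coding sequences, Obox1 and Obox2 had 98.5% identity over the 453 positions aligned without gaps, with 7 mismatches. Counting gaps, their identity was 72.9% over 612 columns. Obox5 and Obox7 had 96.0% identity over 654 aligned positions, and 71.9% over 873 columns with gaps counted. On aligned positions Obox6 stood farthest off, with 76.6% to 81.1% identity to the other members. The coding length itself varied, with 453 bases in Obox2, 612 in Obox1, 654 in Obox7, 873 in Obox5, 1005 in Obox3 and 1041 in Obox6.

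Such likeness bears on the measurement, because a read from a stretch that 2 genes share cannot be given to either one. Of all windows of 100 bases in the GENCODE transcripts of Obox2, 47.2% also occurred in another gene, and for Obox1 it was 42.3%. All of those windows of Obox2 and Obox1 were shared between these 2 genes. The share was 8.9% for Obox3, where the other copies were mostly Obox3 pseudogenes. It was 2.3% for Obox7, 1.8% for Obox5 and 0.0% for Obox6. With windows of 150 bases the shares were 38.2% for Obox2, 34.1% for Obox1, 4.5% for Obox3 and 0.0% for the other 3 genes. Neither the read length nor the treatment of reads with several matches is given in the sources used here. Thus the split of reads between Obox1 and Obox2, and the levels of Obox3, are uncertain, whereas Obox5, Obox7 and Obox6 rest mostly on sequence of their own. With windows of 50 bases, however, 18.1% were shared for Obox5, 21.1% for Obox7 and 5.0% for Obox6. Of the Obox7 windows, 17.1% were shared with Obox5, so short reads could also be split between these 2 genes.

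**Figure D2:**
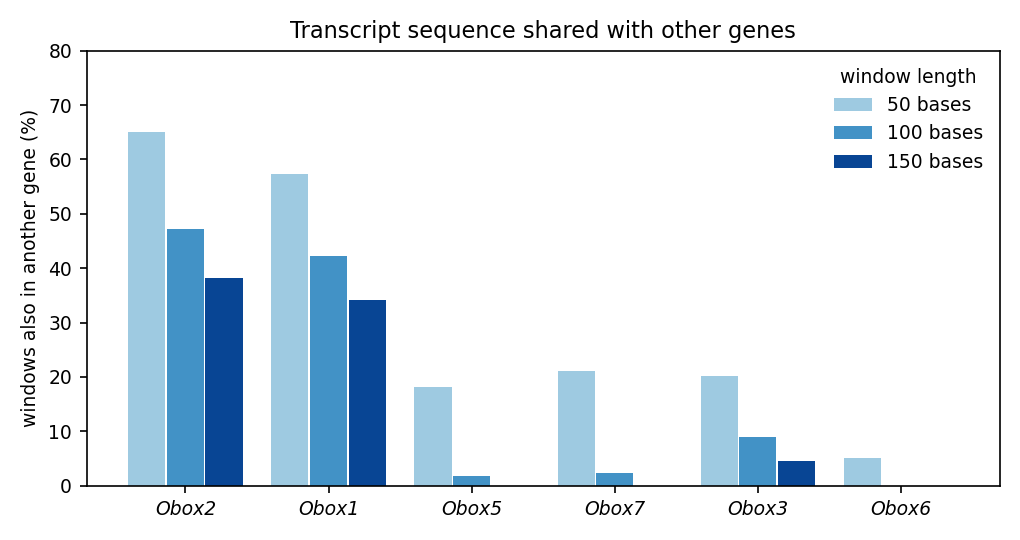
Percentage of windows of 50, 100 or 150 bases in each gene's transcripts that also occur in another gene, on either strand. The bars of Obox2 and Obox1 are the highest at each window length, and those of Obox5, Obox7 and Obox6 fall to 0.0 at 150 bases.

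The likeness extended to the stretches around the annotated RefSeq starts. RefSeq promoter windows (GRCm38.p6, 250 bases before to 50 after the annotated start) were found for 5 of the 6 members. For Obox2, Obox1, Obox5 and Obox7 the parts printed below lie inside the gene spans of the deposited table, which start earlier than the RefSeq entries. In Obox2 the run in capitals begins 1 base before the RefSeq start, so most of it lies after that start. The parts printed here hold a run of 25 bases common to all 5 windows, in capitals, followed in 4 of them by the TATA-like word TATATAAG, also in capitals.

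Obox2, chr7:15388830-15388880, plus strand: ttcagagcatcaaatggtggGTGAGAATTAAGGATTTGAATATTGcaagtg
Obox1, chr7:15547139-15547276, plus strand: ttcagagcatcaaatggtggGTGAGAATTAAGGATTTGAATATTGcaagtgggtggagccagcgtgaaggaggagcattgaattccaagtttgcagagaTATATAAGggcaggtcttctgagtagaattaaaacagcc
Obox5, chr7:15750240-15750389, plus strand: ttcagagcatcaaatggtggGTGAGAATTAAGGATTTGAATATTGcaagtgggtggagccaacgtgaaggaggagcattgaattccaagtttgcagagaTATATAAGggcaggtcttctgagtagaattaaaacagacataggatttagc
Obox7, chr7:14659604-14659727, plus strand: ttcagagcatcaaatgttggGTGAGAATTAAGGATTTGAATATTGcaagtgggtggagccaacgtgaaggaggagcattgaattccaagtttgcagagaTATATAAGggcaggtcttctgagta
Obox3, chr7:15639758-15639906, minus strand: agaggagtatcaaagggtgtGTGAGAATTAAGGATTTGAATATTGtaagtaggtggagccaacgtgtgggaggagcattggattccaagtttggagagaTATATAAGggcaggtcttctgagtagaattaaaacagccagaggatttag

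TATATAAG, searched on both strands, occurred in 4 of the 5 windows, and in 1.01% of 32851 RefSeq promoter windows of the same length. The 4 windows are near-copies of each other, with 91.8% to 97.1% identity over their aligned columns. They are therefore not independent, and the share over all windows is no test of enrichment. Its first base lay 31 bases before the annotated start in Obox5, 30 in Obox3, 19 in Obox1 and 5 in Obox7. The Obox2 window ended before the matching place. The windows of Obox1 and Obox2 were identical over 203 aligned columns, and those of Obox5 and Obox7 97.1% over 273. GGATTA, a word bound by some paired-class homeodomains, was in 1 of the 5 windows, that of Obox3, against 7.06% of all windows. TAATTG was in 0 of 5, against 8.0%, and the E-box word CANNTG was in 4 of 5, against 72.3%. These are descriptions of letters, and no binding was measured.

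Library totals lay between 49337232 and 80877288 counts. The cryopreservation-2 libraries were the smallest, at up to 51369012 counts against at least 64276885 in the other 6. The oocyte label was borne out by its markers, with Gdf9, an oocyte growth factor, at 2240 to 5370 FPKM (a level per transcript length and library size). Others of that list were far lower, with Zp2 at 21.4 to 44 FPKM and Kit, the lowest, at 4.09 to 10.2 FPKM. Of the cumulus and granulosa markers, Ptx3 had 0 to 14 counts, Inhba 0 to 29, Has2 0 to 85 and Fshr 15 to 108, while Cyp19a1 was at 5.92 to 13.8 FPKM. Of the blood markers, Ptprc had 0 to 7 counts, Hbb-bs 0 to 6 and Hba-a1 0 to 19, while Cd68 had 39 to 411 (0.506 to 4.53 FPKM). Of the stromal and endothelial markers, Col1a1 had 0 to 4 counts and Pdgfra 0 to 32, while Pecam1 was at 9.35 to 22.5 FPKM. The summed oocyte markers took 0.929 to 1.65% of counts in cryopreservation-2, 1.07 to 1.58% in cryopreservation-1 and 1.12 to 1.63% in fresh oocytes. The summed cumulus and granulosa markers took 0.00346 to 0.00756% in cryopreservation-2, 0.00555 to 0.00606% in cryopreservation-1 and 0.00599 to 0.00681% in fresh oocytes. Most of this sum was Cyp19a1, at 1671 to 5264 counts. In each group 1 library had clearly more genes at 0 than the other two. These were replicate 1 of cryopreservation-2 (8667 genes), replicate 3 of cryopreservation-1 (8421) and replicate 3 of fresh (9108), against 6351 to 7744 in the other 6. The same 3 libraries had the lowest Obox sum and the lowest oocyte marker sum of their group. They also had the highest sum of stromal and endothelial markers, at 0.0146 to 0.0159% of counts against 0.00694 to 0.0108% in the other 6. That sum was nearly all Pecam1, at 3634 to 10767 counts, so it says little about stromal genes. The part of these library differences in the Obox values was not tested. Values without these 3 libraries are given below.

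Obox2 was the highest member in all 9 libraries. It had 1640, 2093 and 1991 FPKM in cryopreservation-2, 3527, 3190 and 2498 FPKM in cryopreservation-1, and 3275, 4075 and 2312 FPKM in fresh oocytes. Every cryopreservation-2 library was below every other library, and the other 2 groups overlapped. Ranked by FPKM among the 26358 genes of the table, Obox2 stood at place 8 to 25.

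Obox1, its near-copy, came next. It had 1210, 1670 and 1621 FPKM in cryopreservation-2, 2499, 2115 and 1722 FPKM in cryopreservation-1, and 2076, 2819 and 1462 FPKM in fresh oocytes. The cryopreservation-2 libraries lay below all of cryopreservation-1 but overlapped with fresh, where replicate 3 was lower than 2 of them. Its rank was 15 to 36.

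Obox5, which has more sequence of its own, followed the same order. It had 915.5, 1160 and 1140 FPKM in cryopreservation-2, 1888, 1526 and 1239 FPKM in cryopreservation-1, and 1586, 1990 and 1134 FPKM in fresh oocytes. On the FPKM scale the cryopreservation-2 libraries again lay below cryopreservation-1 and overlapped with fresh. In CPM (counts scaled to library size by TMM, the scale of the test) they lay below both groups, with at most 2654 CPM against at least 2861 CPM in fresh. Its rank was 21 to 41.

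Obox7, the member at the far end of the cluster, was lower by several fold. It had 197.4, 245.5 and 259.8 FPKM in cryopreservation-2, 331.1, 274 and 213 FPKM in cryopreservation-1, and 185.7, 404.1 and 189.6 FPKM in fresh oocytes. All 3 groups overlapped, and fresh replicate 2 was the highest library. Its rank was 119 to 218. The order Obox2, Obox1, Obox5, Obox7 held in every library.

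The members known from the embryo were at the edge of detection. Obox3 had 10, 25 and 25 counts in cryopreservation-2, 127, 65 and 11 counts in cryopreservation-1, and 33, 62 and 95 counts in fresh oocytes, which is 0.04316 to 0.4411 FPKM. The 3 groups overlapped. Obox6 had 46 counts in cryopreservation-2 replicate 1, 11 in cryopreservation-1 replicate 1 and 0 in the other 7 libraries. A count of 0 allows up to 3 counts there, or 0.0372 to 0.0547 CPM in those libraries, for counting error only. Obox6 did not pass the filter on low counts, so 5 of the 6 genes were tested.

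**Figure D3:**
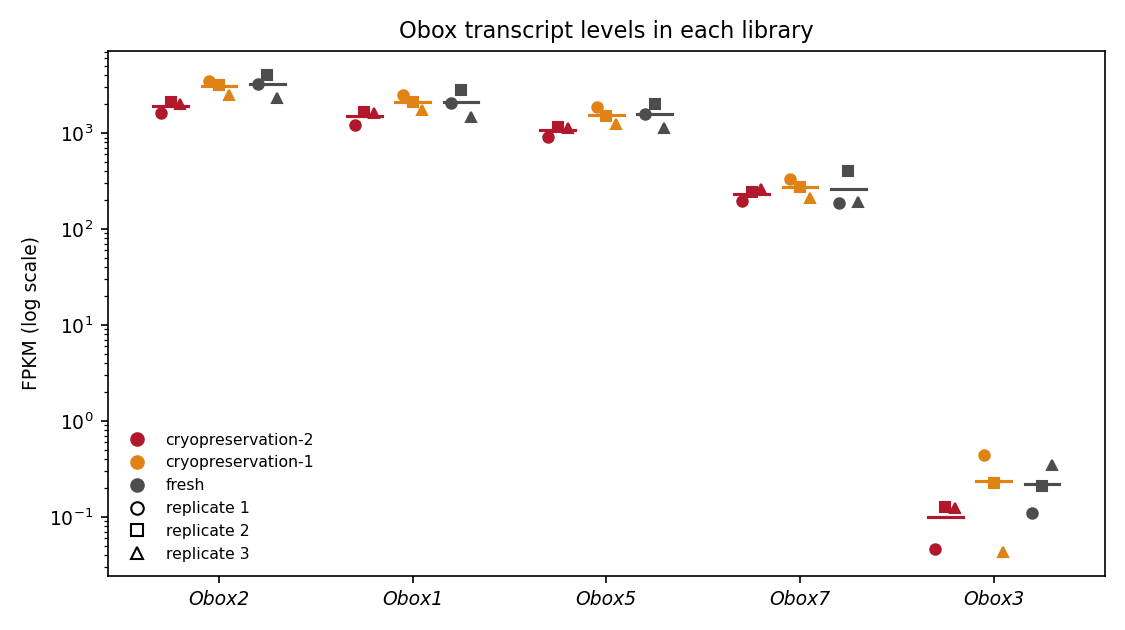
FPKM (log axis) of the 5 tested members in each of the 9 libraries; colours are groups, marker shapes are replicate numbers, and short lines are group means (n = 3). Obox2, Obox1 and Obox5 are at 915.5 FPKM or higher in each library, Obox7 is between 185.7 and 404.1 FPKM, and Obox3 is below 1.

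The 6 genes together took 1.036 ± 0.151% of all counts in cryopreservation-2, 1.407 ± 0.270% in cryopreservation-1 and 1.471 ± 0.415% in fresh oocytes (SD, n = 3 each). In scaled counts the sum was 9370 ± 906.8 CPM in cryopreservation-2, 14630 ± 2889 CPM in cryopreservation-1 and 15780 ± 5454 CPM in fresh oocytes. The cryopreservation-2 libraries, at 8380 to 10160 CPM, lay below both other groups, which began at 11620 CPM in cryopreservation-1 and 11000 CPM in fresh. The ratio of means was 1.683-fold lower in cryopreservation-2 than in fresh and 1.561-fold lower than in cryopreservation-1. As a share of counts and in FPKM, the sums of cryopreservation-2 and fresh overlapped, at up to 1.129% and 5170 FPKM in cryopreservation-2 against at least 1.055% and 5098 FPKM in fresh. The sum is a description and carries no test. In bulk RNA, fewer oocytes of a kind and less RNA per oocyte cannot be told apart. The values are scaled within libraries of selected poly(A) RNA, so they are relative levels and not amounts of mRNA per oocyte.

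Whether the relative level of Obox mRNA differed between cryopreservation-2 and fresh oocytes was tested per gene. The test was edgeR's quasi-likelihood test over all 17545 genes that passed the filter, with Benjamini-Hochberg adjustment. No member passed an adjusted p of 0.05, against 5.38% of all genes called in that comparison (3.18% higher and 2.2% lower in cryopreservation-2). Obox2 was 1.875-fold lower in cryopreservation-2 (log2 fold change -0.91, SE 0.24, 95% confidence interval -1.45 to -0.36, adjusted p = 0.060). Obox5 was 1.627-fold lower in cryopreservation-2 (log2 -0.70, SE 0.25, interval -1.26 to -0.15, adjusted p = 0.134). For Obox1 the log2 fold change was -0.66 (SE 0.27, interval -1.25 to -0.06, adjusted p = 0.188). These 3 genes had an unadjusted edgeR p under 0.05, as did 21.8% of all genes. For Obox7 the log2 fold change was -0.32, with an interval of -1.06 to 0.42, and for Obox3 it was -1.31, with an interval of -3.35 to 0.74. Neither interval shows whether these 2 genes differed.

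The groups' CPM did not overlap for Obox2 and Obox5, 2 of the 5 tested genes, both lower in cryopreservation-2. Among all genes, 12.4% were lower in cryopreservation-2 without overlap. The median log2 fold change was -0.70 over the 5 members and -0.06 over all genes tested. All 5 had a log2 fold change below 0, as did 52.4% of all genes. Obox3 passed the filter at 10 to 127 counts, so its place in these counts rests on few reads.

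Obox2 stood close to the threshold, and its call depended on the tool. DESeq2 called it lower in cryopreservation-2 than in fresh (log2 -0.88, adjusted p = 0.00674), and 1 member in all. It was also called by edgeR with a minimum count of 50 (adjusted p = 0.0429) and by limma at a mean FPKM of at least 1 (adjusted p = 0.0463). With an offset for gene length in edgeR, 3 members were called: Obox2 (adjusted p = 0.0126), Obox5 (0.0365) and Obox1 (0.0405). These settings also differed in their calls over all genes. DESeq2 called 2447 of 17545, the minimum count of 50 gave 1157 of 13540, this limma fit 1688 of 8934 and the length offset 802 of 17545. Over all alternatives the adjusted p of Obox2 ran between 0.00674 and 0.144. With 1 library left out, the log2 fold changes ran from -1.11 to -0.63 for Obox2, -0.90 to -0.43 for Obox5 and -0.87 to -0.32 for Obox1. The difference in these 3 genes was smallest without fresh replicate 2, the library with the highest Obox sum. Without it the log2 fold changes were -0.63 for Obox2, -0.43 for Obox5, -0.32 for Obox1 and 0.23 for Obox7. Without the 3 libraries with the most genes at 0, they were -0.95, -0.74, -0.68 and -0.34, and 0 members were called. Of all 18133 genes tested in that setting, 194 were called.

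Cryopreservation-1 was compared with fresh in the same fit. No member was called, and neither was any other gene (0% of 17545 by edgeR, with 828 genes, or 4.72%, and 0 members at an unadjusted p under 0.05, while DESeq2 called 43). The log2 fold changes were -0.14 for Obox2 (interval -0.68 to 0.39), -0.08 for Obox1 (-0.68 to 0.51), -0.09 for Obox5 (-0.65 to 0.46) and -0.02 for Obox7 (-0.76 to 0.72). For Obox3 it was 0.01 (-1.99 to 2.01). All adjusted p-values were 1 in edgeR. The groups overlapped for each of the 5 genes, whereas 3.72% of all genes were lower and 6.37% higher in cryopreservation-1 without overlap. The signs were not stable: without fresh replicate 2, the values of Obox2, Obox1, Obox5 and Obox7 were 0.13, 0.25, 0.18 and 0.53.

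Both freezing methods were then set against each other. No member was called by edgeR, against 2.75% of all genes (1.5% higher and 1.25% lower in cryopreservation-2). In cryopreservation-2 relative to cryopreservation-1, Obox2 had a log2 fold change of -0.76 (SE 0.24, interval -1.30 to -0.22, adjusted p = 0.118). Obox5 had -0.61 (interval -1.17 to -0.05, adjusted p = 0.218) and Obox1 had -0.57 (interval -1.17 to 0.02, adjusted p = 0.284). Obox2 and Obox5 had an unadjusted edgeR p under 0.05, as did 18.9% of all genes. The CPM of these 3 genes did not overlap between the groups, and 15.2% of all genes were lower in cryopreservation-2 in that way. Obox7, at -0.30 (interval -1.04 to 0.44), and Obox3, at -1.32 (interval -3.36 to 0.73), overlapped. All 5 values were below 0, as were those of 53.2% of all genes. DESeq2 called Obox2 here (adjusted p = 0.0455), as did edgeR with the length offset (adjusted p = 0.0461). Of all 17545 genes, DESeq2 called 1868 and the length offset 503. This comparison and that with fresh share the cryopreservation-2 libraries, so their values are not independent.

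**Figure D4:**
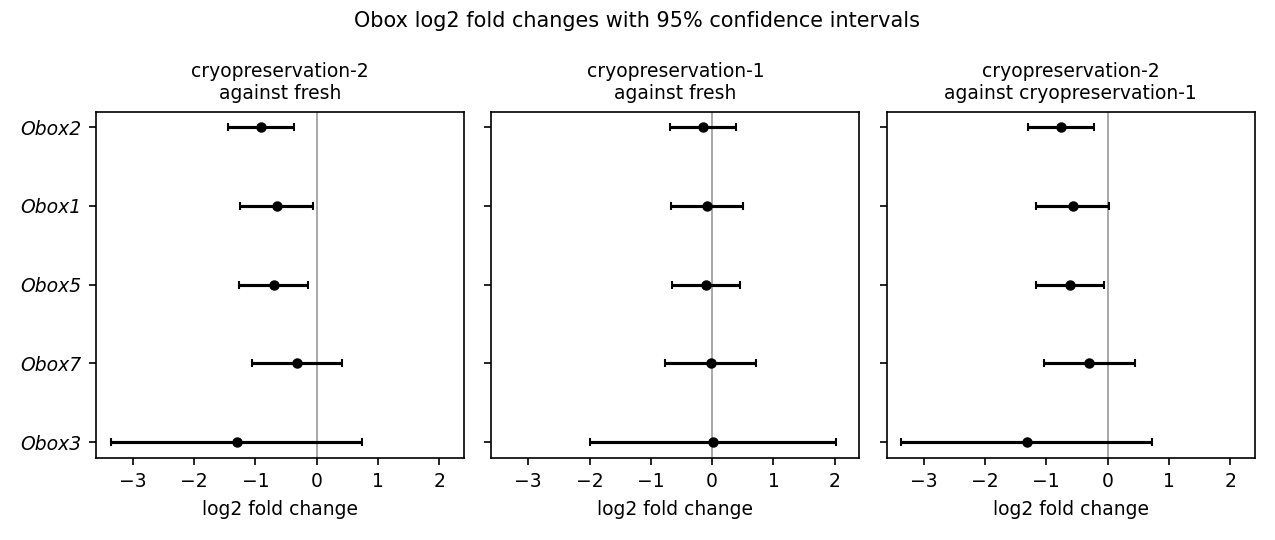
Log2 fold changes of the 5 tested members from edgeR in the 3 comparisons, as points with 95% confidence intervals; the grey line marks 0. The intervals of Obox2 and Obox5 lie below 0 in both comparisons of cryopreservation-2, no adjusted p is below 0.05, and the intervals of the other comparison all span 0.

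The make-up of the family was also compared. As a share of the summed FPKM of the 6 genes, Obox2 made up 39.7 to 41.4% in cryopreservation-2, 42.8 to 44.9% in cryopreservation-1 and 43.9 to 46.0% in fresh oocytes. Obox7 made up 4.75 to 5.18% in cryopreservation-2, 3.76 to 4.02% in cryopreservation-1 and 2.61 to 4.35% in fresh oocytes. Relative to both other groups, Obox2 held a smaller and Obox7 a larger share in every cryopreservation-2 library.

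Ratios of members within a library do not depend on how libraries are scaled. The ratio of Obox1 to Obox2 was 0.738, 0.798 and 0.814 in cryopreservation-2, 0.709, 0.663 and 0.690 in cryopreservation-1, and 0.634, 0.692 and 0.633 in fresh oocytes. The 3 cryopreservation-2 values were the highest of the 9. Obox2 to Obox5 was 1.78 ± 0.031 in cryopreservation-2, 1.99 ± 0.113 in cryopreservation-1 and 2.05 ± 0.014 in fresh oocytes (SD, n = 3 each), again without overlap. Obox5 to Obox7 was 4.59 ± 0.174 in cryopreservation-2, 5.70 ± 0.123 in cryopreservation-1 and 6.48 ± 1.86 in fresh oocytes. Obox1 to Obox5 overlapped between all groups, at 1.39 ± 0.064 in cryopreservation-2, 1.37 ± 0.037 in cryopreservation-1 and 1.34 ± 0.069 in fresh oocytes. For each of the 6 pairs of Obox1, Obox2, Obox5 and Obox7 the ratio was tested in the 3 comparisons, 18 tests in all. The two-sided exact permutation p was 0.1, the smallest that 3 libraries against 3 allow, wherever groups did not overlap (adjusted p = 0.18), so none could pass 0.05. The 6 ratios are built from only 4 genes and are not independent of each other. Reads shared by Obox1 and Obox2, or by Obox5 and Obox7, could shift the ratios of these genes, and this was not tested.

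**Figure D5:**
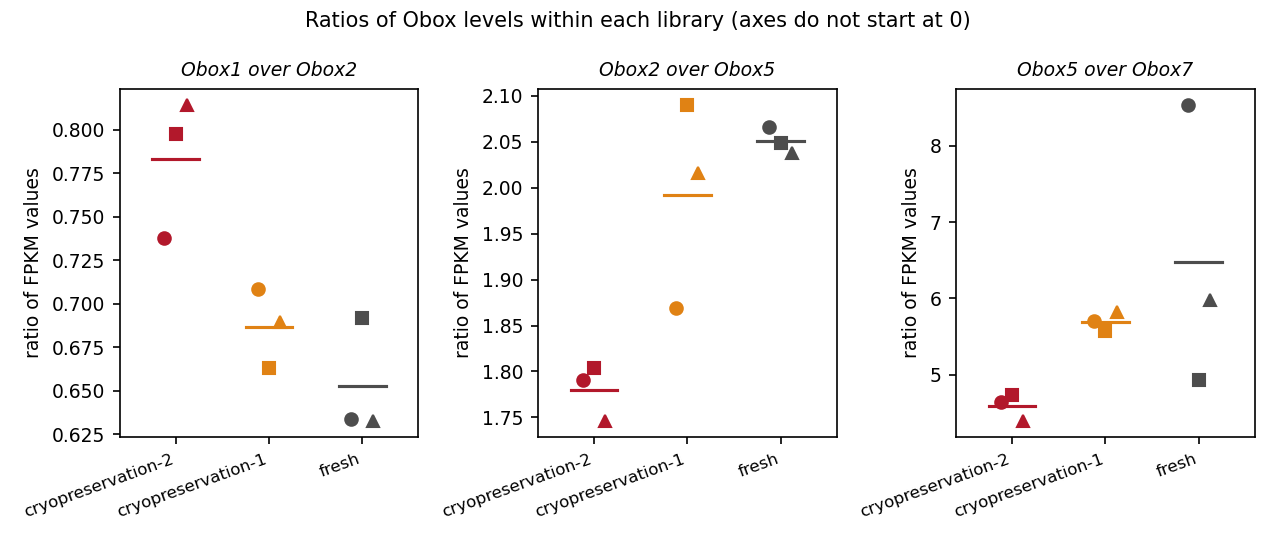
Ratios of FPKM values within each library for 3 pairs of members (axes do not start at 0); points are libraries, with marker shapes for replicate numbers 1 (circle), 2 (square) and 3 (triangle), and lines are group means (n = 3). The 3 cryopreservation-2 libraries lie above the other 6 for Obox1 over Obox2 and below them for the other 2 ratios.

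Across the 9 libraries the abundant members varied together. In log2(CPM + 1), Pearson's r was 0.99 between Obox1 and Obox5, 0.99 between Obox2 and Obox5, 0.97 between Obox1 and Obox2, and 0.69 to 0.82 between Obox7 and these 3. The 9 libraries share group and depth differences, so these are descriptions. Among 6423 genes outside the family with a mean of at least 10 CPM, the 4 with the pattern most like that of the summed family were Igsf3 (r = 0.990), Ceacam20 (0.976), Aurkc (0.973) and Opn3 (0.971). Aurkc encodes a kinase of meiotic chromosome segregation.

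The other Obox entries of the table were low. Of 33 such entries, 10 passed the filter, and 0 were called in any comparison by edgeR, with 0 at an unadjusted p under 0.05 in each. The highest were Obox3 pseudogenes: Obox3-ps8, outside the cluster, with 48 to 454 counts per library, Obox3-ps5 with 20 to 382 and Obox3-ps6 with 11 to 321. Obox3-ps5 and Obox3-ps6 were the only entries inside the cluster, beside the named genes, with a group mean of at least 1 FPKM. Obox3-ps2 reached 154 counts, Obox3-ps4 121 and Obox3-ps1 71. The other tested entries were Obox4-ps3 (at most 40 counts), Obox4-ps34 (29), Obox4-ps27 (22) and Obox4-ps30 (22). Of the 23 that were not tested, Obox8, a gene of the family outside the list, had at most 46 counts. The remaining 22 had at most 19: Obox3-ps3, and Obox4-ps6, -ps8, -ps11 to -ps23, -ps26, -ps28, -ps29, -ps31, -ps36 and -ps39.

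The pseudogenes varied widely within groups. The Obox3 pseudogenes summed to 109, 705 and 376 counts in cryopreservation-2, 1165, 1052 and 105 counts in cryopreservation-1, and 225, 1435 and 184 counts in fresh oocytes. The lowest library of each group was again the one with the most genes at 0. In these 3 libraries 6 or 7 of the 33 other entries had any count, against 15 to 28 in the other 6 libraries. The part of library quality in the pseudogene and Obox3 counts was not tested.

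Other transcription factors gave a setting for the family. A list of 45 homeobox and oocyte transcription factors had 41 genes in the table and 33 that were tested. In cryopreservation-2 against fresh, where 3.18% of all genes rose and 2.2% fell, 0 of the 33 rose and 1 fell. It was Pou2f1, which encodes the octamer-binding factor OCT1 (log2 fold change -0.94, SE 0.21, adjusted p = 0.0333 by edgeR). It averaged 5.24 FPKM in cryopreservation-2 and 9.10 FPKM in fresh oocytes. The list's median log2 fold change was -0.17, against -0.06 over all genes. Pou2f1 also fell in cryopreservation-2 against cryopreservation-1 (log2 -0.92, adjusted p = 0.0495), the only one of the 33 called, where 2.75% of all genes were. None of the list was called in cryopreservation-1 against fresh, where edgeR called 0 of all 17545 genes and DESeq2 also called 0 of the list. There 1 of the 33 had an unadjusted edgeR p under 0.05, against 4.72% of all genes. The lack of calls does not show that none of them changed. Nobox, an oocyte homeobox factor needed for follicle growth, had 70.6 FPKM in cryopreservation-2 and 37.3 FPKM in fresh oocytes (log2 0.79, adjusted p = 0.0525), so its value lay on the other side of 0 from those of the Obox genes. Meis2, the highest of the list at 166 FPKM in cryopreservation-2 and 157 FPKM in fresh oocytes, had a log2 fold change of -0.06 (adjusted p = 0.890). Gtf2a1l, a germ-cell subunit of the general transcription machinery, had 0.06 (adjusted p = 0.938). Pou2f1 was no longer called in either comparison without the 3 libraries with the most genes at 0 (adjusted p = 0.0973 against fresh and 0.151 against cryopreservation-1). In that setting edgeR called 194 of 18133 genes against fresh and 0 against cryopreservation-1. With 1 library left out, its adjusted p in edgeR was 0.0427 to 0.111 against fresh and 0.0381 to 0.186 against cryopreservation-1.

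A list of 59 factors and early genes of zygotic genome activation had 52 genes in the table and 47 tested. In cryopreservation-2 against fresh, 2 rose and 4 fell by edgeR, 6 of 47 in all, against 5.38% of all genes called (3.18% higher and 2.2% lower). Dppa2, an activator of early embryonic genes, rose to 75.9 FPKM in cryopreservation-2, against 30.3 FPKM in fresh oocytes (log2 1.18, SE 0.21, adjusted p = 0.0160). Smarca5, a chromatin remodeller, rose to 32.7 FPKM in cryopreservation-2, against 13.2 FPKM in fresh oocytes (log2 1.21, adjusted p = 0.0377). Klf17, a zinc-finger factor abundant in oocytes, fell to 541 FPKM in cryopreservation-2, against 956 FPKM in fresh oocytes (log2 -0.95, adjusted p = 0.0346). Hsf1, the maternal heat shock factor, fell with a log2 fold change of -0.90 (adjusted p = 0.0238). Nfyc, a subunit of the CCAAT-binding factor, had -0.79 (adjusted p = 0.0412), and Kdm4a, a histone demethylase, had -0.86 (adjusted p = 0.0467). The list's median was -0.01, against -0.06 over all genes. With any 1 library left out, 0 to 3 genes of the list were called, with 0 without fresh replicate 3. In that last setting 231 of all 18494 genes were called.

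Against cryopreservation-1, 3 genes of that list rose in cryopreservation-2 and 4 fell, 7 of 47 in all, against 2.75% of all genes called (1.5% higher and 1.25% lower). Those that rose were Smarca5 (log2 2.51, adjusted p = 0.00783), Dppa2 (1.41, adjusted p = 0.0131) and Rif1, a replication-timing factor (1.34, adjusted p = 0.0265). Rif1 was not called in cryopreservation-2 against fresh (0.36, adjusted p = 0.454). Those that fell were Kdm4a (-1.26, adjusted p = 0.0209), Nfyc (-1.04, adjusted p = 0.0244), Klf17 (-1.12, adjusted p = 0.0292) and Hsf1 (-0.84, adjusted p = 0.0422). The list's median was 0.06, against -0.07 over all genes. With 1 library left out, 0 to 6 were called, with 0 without cryopreservation-1 replicate 1 or replicate 3. Of all genes, edgeR called 15 of 18338 without that replicate 1 and 16 of 18647 without that replicate 3. In cryopreservation-1 against fresh, 0 of the 47 were called by edgeR, with 3 at an unadjusted p under 0.05 and 1 called by DESeq2. The abundant maternal genes Dppa3, at 3826 FPKM in cryopreservation-2 and 3218 FPKM in fresh oocytes, and Btg4, at 1814 FPKM in cryopreservation-2 and 2441 FPKM in fresh oocytes, were not called (adjusted p = 0.820 and 0.0786). Without the 3 libraries with the most genes at 0, 0 genes of the list were called in any comparison. Of all 18133 genes tested in that setting, edgeR called 194 in cryopreservation-2 against fresh. It called 0 in cryopreservation-2 against cryopreservation-1, so the lack of calls there is not particular to the list.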

How the data were processed

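Poly(A) RNA of mouse oocytes was selected on oligo(dT) beads and made into strand-marked dUTP libraries, per the labels' protocols. The submitters' processing notes name cutadapt 1.9, HISAT2 2.0.4, StringTie 1.3.4d and GRCm38. How reads were assigned to genes, with which strand setting and annotation, is not given in the sources used here. For each gene and library, the authors deposited whole-number read counts, not normalized, and FPKM values.

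Counts were tested with edgeR 4.0.16 (R 4.3.3) in 1 fit over all 9 libraries, after filterByExpr (minimum count 10, minimum total 15) and TMM scaling, with Benjamini-Hochberg adjustment over 17545 genes and calls at an adjusted p under 0.05. DESeq2 1.42.0 and limma 3.58.1 served as alternatives. On simulated counts, the edgeR script was tested first. Total counts ran between 49337232 and 80877288. The labels do not say whether replicates came from separate animals or pools, so the spread behind each p-value is that between libraries and may be technical. No pair of libraries in a group agreed within sampling noise (chi-square per degree of freedom at least 78.1). Same-numbered cryopreservation-1 and fresh libraries deviated together from their group means (r from 0.271 to 0.439 in 3 of 3 pairs, against -0.337 to 0.0771 for other pairs of these groups). Libraries of different numbers could do so too, with r = 0.414 for cryopreservation-1 replicate 3 and cryopreservation-2 replicate 1. Both are among the libraries with the most genes at 0. The pairing is thus only a hint in the data, and the labels do not state it. A replicate block was therefore also fitted in cryopreservation-1 and fresh alone.

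The members, gene lists and tests were chosen with earlier results of these data known. All 6 members and all other Obox entries were named. From the lists, genes called in any comparison (at most 8 per list) and the 3 with the highest FPKM were named, as were the genes most like the summed family in pattern, of which 1 is not reported here. Transcript sequences came from GENCODE M21 and promoters from RefSeq (GRCm38.p6), compared with Biopython 1.88.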

Additional observations from a re-analysis of the deposited data

How the results depend on the processing

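Under most alternatives 0 Obox members were called in any comparison. In cryopreservation-2 against fresh, 1 was called with a minimum count of 50, with DESeq2 and with limma on log2(FPKM + 1) at a mean FPKM of at least 1, and 3 with an offset for gene length. In cryopreservation-2 against cryopreservation-1, 1 was called with DESeq2 and with the length offset. The log2 ratio of the summed family stayed within 1 SD of its value in each comparison, and in cryopreservation-2 against fresh it was below 0 under each alternative.

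Of the homeobox and oocyte factor list, in cryopreservation-2 against fresh, 1 gene was called, but 2 with RLE factors, a minimum count of 50, either limma pseudocount or thinned counts, 3 with limma at a mean FPKM of at least 1, 6 with DESeq2, and 0 with the 2 groups alone, the replicate block or the length offset (0 to 1 leaving out 1 library). Against cryopreservation-1, 1 was called, but 2 with limma at a mean FPKM of at least 1, 5 with DESeq2, and 0 with RLE factors, no scaling, no filter, the replicate block, the length offset, thinned counts or without the 3 libraries with the most genes at 0 (0 to 1 leaving out 1 library). Of the genome activation list, 6 were called in cryopreservation-2 against fresh, but 11 with DESeq2, 3 with no filter, the replicate block or the length offset, 1 with the 2 groups alone and 0 without those 3 libraries (0 to 3 leaving out 1 library). Against cryopreservation-1, 7 were called, but 3 with the replicate block and 0 without those 3 libraries (0 to 6 leaving out 1 library, with 0 without cryopreservation-1 replicate 1 or 3). In cryopreservation-1 against fresh, DESeq2 called 1 against 0. Leaving out libraries reduces the samples behind each call; for the other settings the cause was not tested.

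Log2 fold changes near 0 changed sign. In cryopreservation-2 against fresh, Meis2 (-0.06) was 0.16 without scaling, 0.078 in the 3 limma fits, 0.0015 with the 2 groups alone and 0.10 with the length offset. Gtf2a1l (0.06) was -0.11 with the length offset and -0.14 without the 3 libraries, and Dppa3 (0.11) was -0.22 with the length offset. In cryopreservation-1 against fresh, Obox1 (-0.08) was 0.030 in the limma fits. Obox3 (0.01) was -0.036 with RLE factors, -0.039 with a minimum count of 50, -0.035 with DESeq2, -0.020 with no filter, -0.069 with limma at a pseudocount of 0.1, -0.029 with the 2 groups alone, -0.28 with these and the replicate block, and -0.30 with the length offset. Obox7 (-0.02) was 0.040 without scaling, 0.15 in the limma fits, 0.063 with the replicate block and 0.052 with the block in the 2 groups alone. Pou2f1 (-0.03) was 0.015 without scaling and 0.046 to 0.050 in the limma fits, and Hsf1 (-0.06) was 0.0073 to 0.0075 in the limma fits. With the length offset Nobox (0.26) was -0.0083, Klf17 (0.17) -0.078 and Dppa3 (0.05) -0.14. In cryopreservation-2 against cryopreservation-1, Meis2 (-0.14) was 0.049 without scaling and 0.048 with the length offset, Gtf2a1l (0.30) was -0.072 without the 3 libraries, and Dppa3 (0.06) was -0.084 with the length offset and -0.023 without the 3 libraries.

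Leaving out 1 library gave these ranges. In cryopreservation-2 against fresh they were -0.55 to 0.23 for Obox7, -0.15 to 0.082 for Meis2, -0.18 to 0.20 for Gtf2a1l and -0.0071 to 0.24 for Dppa3. In cryopreservation-1 against fresh they were -0.30 to 0.25 for Obox1, -0.34 to 0.13 for Obox2, -0.79 to 0.50 for Obox3, -0.29 to 0.18 for Obox5, -0.25 to 0.53 for Obox7, -0.13 to 0.17 for Pou2f1, -0.0053 to 0.22 for Meis2, -0.087 to 0.18 for Dppa3 and -0.18 to 0.044 for Btg4. Dppa3 ran from -0.039 to 0.20 in cryopreservation-2 against cryopreservation-1.

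Over all genes, 944 were called in cryopreservation-2 against fresh (558 higher, 386 lower), but 2447 with DESeq2, 1654 to 1792 with limma, 429 with the 2 groups alone and 500 with the replicate block, and 483 against cryopreservation-1, but 1868 with DESeq2. Without scaling, 938 of 1125 calls against fresh were higher. In cryopreservation-2 against fresh, 1157 of 13540 genes were called with a minimum count of 50 and 802 of 17545 with the length offset. Without the 3 libraries with the most genes at 0, 194 of 18133 genes were called in cryopreservation-2 against fresh and 0 against cryopreservation-1. In fresh and cryopreservation-1 alone with the replicate block, 1 gene was called in all, 0 of them members or list genes, and the block changed no call of a member in any comparison. For both comparisons of cryopreservation-2, same-numbered libraries share only a number (correlations of deviations from -0.389 to 0.168, with 1 of 3 pairs over 0.1 in each). The setting without 3 libraries and the block in 2 groups were chosen after seeing the data. Obox3 rests on 10 to 127 counts per library and Obox6 on 0 to 46.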
